A study of Mus musculus with 39 samples.

Results

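The 6 genes *Fgf1*, *Fgf7*, *Fgf9*, *Fgf12*, *Fgf13* and *Fgf14* encode fibroblast growth factors, and their expression was followed on 39 Affymetrix Mouse Genome 430 2.0 arrays of lumbar dorsal root ganglia (DRG). Every probe set annotated to only 1 of these symbols was taken, which gave 16 of the 45037 probe sets tested and 6 of the 18193 genes with a probe set of their own. The 6 genes were chosen by name, with measured values of these same arrays in view. *Fgf9* had been singled out for its difference between the sorted populations of wild-type newborns, and which values led to the other genes was not recorded, so that difference is given as a description and the p-values below are no independent evidence about the list.

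The fibroblast growth factors fall into secreted ligands and intracellular relatives. Secreted ligands bind receptor tyrosine kinases on neighbouring cells and signal through adaptor proteins to the MAP kinase pathway, which in turn induces feedback inhibitors such as the Sprouty proteins. Of the genes described here, *Fgf1*, *Fgf7* and *Fgf9* encode ligands. FGF1 lacks a signal peptide and can bind all FGF receptors, FGF7 acts on an epithelial splice form of FGFR2 and is also known as an organiser of inhibitory synapses, and FGF9 acts on mesenchymal receptor forms. *Fgf12*, *Fgf13* and *Fgf14* encode FGF homologous factors, which are not secreted, do not work as receptor ligands and bind the intracellular tail of voltage-gated sodium channels. Proprioceptors are the DRG neurons that innervate muscle spindles and Golgi tendon organs, express the NT3 receptor TrkC and depend on NT3 from muscle.

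All newborn arrays came from postnatal day 0 (p0) mice of mixed 129/C57Bl6 strain that carry a BAC transgene with GFP under TrkC regulatory elements, and cells were sorted into TrkCGFPon proprioceptors and TrkCGFPoff cells, a population that holds all other sorted DRG cells. Pooled lumbar DRG gave 8 groups of 2 arrays, made from 350 cells each, in 4 genotypes. These were wild-type, Bax-/- (lacking a gene needed for neuronal cell death), NT3-/-Bax-/- (lacking NT3, with Bax also removed because proprioceptors otherwise die) and mlcNT3, a transgene that drives surplus NT3 in skeletal muscle from a myosin light chain promoter. A second set of 11 arrays, made from 100 cells each, compared wild-type TrkCGFPon and TrkCGFPoff cells of the L1 ganglion, which serves trunk and hip, with those of L5, which serves the distal hindlimb, with 2 arrays for L1 TrkCGFPon and 3 for each other group. The third set held 12 arrays of whole, unsorted L1 or L5 DRG of adult wild-type mice kept without a wheel or with a running wheel for 5 weeks, with 3 arrays per group. The strain label of the adult samples reads 129/C57Bl6 while the methods give C57Bl6 males, and their titles name a TrkC sign, 1 for each level, although the ganglia were not sorted.

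Array medians lay between 6.02 and 6.18 on the log2 scale, and the lowest correlation between arrays of 1 group was 0.972. The 4 measured proprioceptor markers *Ntrk3*, *Pvalb*, *Runx3* and *Esrrg* were called higher in TrkCGFPon than in TrkCGFPoff cells in every tested sort, with summed linear intensities of 4482 to 19636 in TrkCGFPon groups and 171 to 1376 in TrkCGFPoff groups. No probe set carried Bax or *Ntf3* as its 1 symbol in the annotation used here, so neither deletion was checked on its own transcript. No source states which arrays came from separate animals, so the p-values measure the spread between these samples. In these bulk samples, fewer cells of a type and less RNA per cell cannot be told apart. All values below are log2 intensities, the probe set with the highest mean stands for its gene, differences are log2 differences with their standard error (SE) from limma, and a gene was called at an adjusted p below 0.05 over all 45037 probe sets. Levels of different probe sets were not compared with each other.

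*Fgf9* showed the strongest enrichment of the 6 genes in wild-type proprioceptors. The 2 wild-type TrkCGFPon arrays read 10.55 and 10.30 and the 2 TrkCGFPoff arrays 5.54 and 4.96, a difference of 5.17, or 36.0-fold, given with no test. Its second probe set differed by only 1.38, or 2.60-fold, on the same arrays. The TrkCGFPoff values lay below the array median, while those of TrkCGFPon cells lay far above it. *Fgf14* read 6.66 and 7.05 in TrkCGFPon cells and 4.67 and 4.75 in TrkCGFPoff cells, a difference of 2.14. Its other probe sets, all dim here, had TrkCGFPon means of 4.98 against 3.95, 4.27 against 3.48 and, in the opposite direction, 4.65 against 4.74. *Fgf7* was higher in TrkCGFPon cells by 1.00, with 5.38 and 5.18 against 4.36 and 4.20, all below the array median. However, the second *Fgf7* probe set, also dim, differed by -0.28. For the remaining genes the main probe sets differed by less. *Fgf12* differed by 0.29, *Fgf1* by -0.29 and *Fgf13* by -0.35, with *Fgf1* and *Fgf13* higher in TrkCGFPoff cells. Arrays did not overlap for the main probe set of any of the 6 genes, which says little with 2 arrays on each side. How many of all probe sets were without overlap was not counted. The second *Fgf13* probe set differed more, by -1.08, with means of 7.98 in TrkCGFPon and 9.06 in TrkCGFPoff cells and no overlap of arrays.

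**Figure D1:**
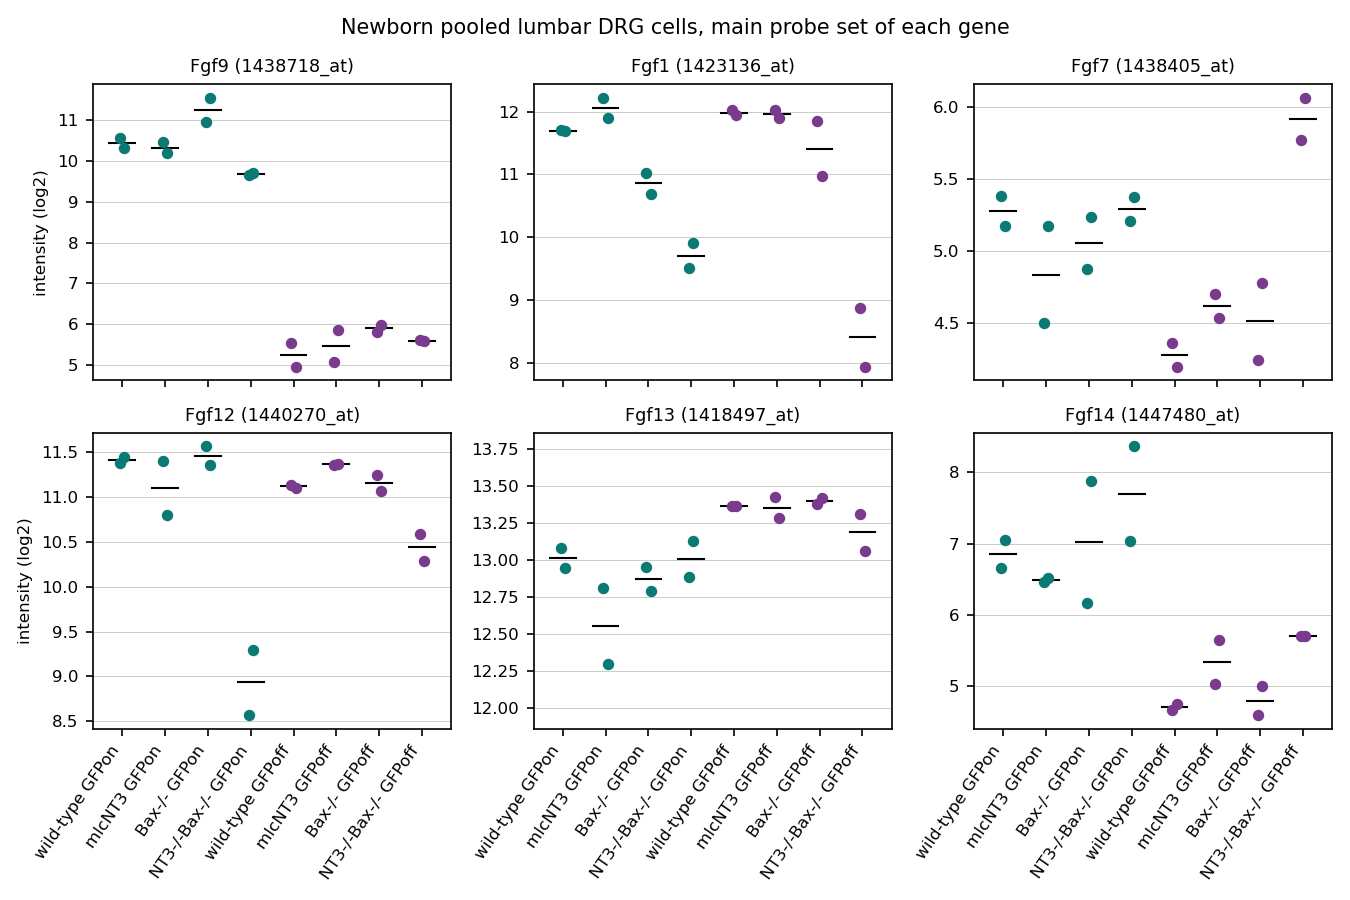
Log2 intensity (y axis) of the main probe set of each gene in the pooled p0 groups (x axis), with 1 point for each array and a bar at the mean of 2 arrays. Fgf9 separates TrkCGFPon from TrkCGFPoff cells in every genotype, whereas Fgf1 and Fgf12 drop in the NT3-/-Bax-/- groups.

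The same sort was next compared in the 3 other genotypes, where it was tested. *Fgf9* was higher in TrkCGFPon cells in each of them, by 5.33 (SE 0.28, adjusted p = 9.3e-07) in Bax-/-, by 4.07 (SE 0.28, adjusted p = 2.1e-06) in NT3-/-Bax-/- and by 4.85 (SE 0.28, adjusted p = 1.1e-06) in mlcNT3. Its TrkCGFPon arrays read 10.94 and 11.54 in Bax-/-, 9.65 and 9.71 in NT3-/-Bax-/- and 10.46 and 10.18 in mlcNT3, whereas all 6 TrkCGFPoff arrays of these genotypes lay between 5.08 and 5.99. A second *Fgf9* probe set was called in the same direction in all 3 genotypes, with smaller differences of 2.23, 1.60 and 1.86. Of the 6 genes, 2 were called higher and 0 lower in Bax-/-, where 7.82% of all probe sets were called in either direction. In NT3-/-Bax-/- the counts were 3 higher and 1 lower beside 19.3% of all probe sets, and in mlcNT3 they were 1 higher and 1 lower beside 10.0%. The median difference of the 6 genes was 0.43, 0.56 and 0.16 in these genotypes, beside -0.01, 0.03 and 0.00 for all probe sets.

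*Fgf14* was the other gene called higher in Bax-/- TrkCGFPon cells, with 6.16 and 7.88 against 4.59 and 5.00, a difference of 2.22 (SE 0.49, adjusted p = 0.015). It was also called in NT3-/-Bax-/-, with 7.04 and 8.36 against 5.71 and 5.70, a difference of 1.99 (adjusted p = 0.013). In mlcNT3 the difference was 1.15 and not called (adjusted p = 0.19). The Bax-/- call was lost without TrkCGFPon replicate 2 (1.36, adjusted p = 0.083), TrkCGFPoff replicate 1 (2.02, adjusted p = 0.11) or TrkCGFPoff replicate 2 (2.43, adjusted p = 0.051), and the NT3-/-Bax-/- call without TrkCGFPon replicate 2 (1.33, adjusted p = 0.11). The main *Fgf14* probe set exceeded the array median on only 8 of 39 arrays, which were the pooled TrkCGFPon arrays. It lay below the median in TrkCGFPoff cells. The averages over the 4 *Fgf14* probe sets gave 0.67 (limma, adjusted p = 0.070) in NT3-/-Bax-/-.

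*Fgf13*, which is best known for binding the sodium channels of sensory neurons, was bright in every group. Its main probe set read 12.30 to 13.13 on the 8 pooled TrkCGFPon arrays and 13.06 to 13.43 on the 8 pooled TrkCGFPoff arrays. It was called only in mlcNT3, where TrkCGFPon cells read 12.81 and 12.30 and TrkCGFPoff cells 13.43 and 13.29, a difference of -0.80 (SE 0.18, adjusted p = 0.015). That call was lost without TrkCGFPon replicate 2 (-0.54, adjusted p = 0.16), the array whose upper quartile of 8.38 was the lower of the pair, and without either TrkCGFPoff array (-0.73, adjusted p = 0.13, and -0.87, adjusted p = 0.059). The second *Fgf13* probe set showed a wider gap between the sorted populations, with differences of -1.65 in Bax-/- (adjusted p = 0.0083) and -1.66 in mlcNT3 (adjusted p = 0.0064), and no call in NT3-/-Bax-/- (-0.35, adjusted p = 0.53).

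To ask how NT3 signaling bears on these genes, NT3-/-Bax-/- cells were compared with Bax-/- cells of the same sort. In TrkCGFPon cells, 0 of the 6 genes were called higher and 3 were called lower, namely *Fgf9*, *Fgf1* and *Fgf12*, beside 18.2% of all probe sets called in either direction. The median difference of the 6 genes was -0.51, against 0.01 for all probe sets. Over the 16 probe sets, 0 were called higher and 8 lower.

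*Fgf12* had the largest drop among the 6 genes in TrkCGFPon cells. Bax-/- arrays read 11.57 and 11.36 and NT3-/-Bax-/- arrays 8.57 and 9.30, a difference of -2.53 (SE 0.24, adjusted p = 4.2e-05), which is 5.78-fold. All 3 *Fgf12* probe sets were called, with differences of -2.53, -2.55 and -2.51. Against wild-type TrkCGFPon cells, which read 11.38 and 11.45, the difference was -2.48 (adjusted p = 2.9e-05). The 2 NT3-/-Bax-/- TrkCGFPon arrays were the lowest of the 16 pooled arrays for this probe set. No array left out ended either call.

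*Fgf9* read 9.65 and 9.71 in NT3-/-Bax-/- proprioceptors and 10.94 and 11.54 in Bax-/- proprioceptors, a difference of -1.56 (SE 0.28, 95% confidence interval -2.16 to -0.96, adjusted p = 0.0021), or 2.95-fold. Its second probe set was called as well (-0.90, adjusted p = 0.025). Against wild-type cells, which lie between both mutants, the difference was -0.75 and not called (adjusted p = 0.067), although it was called without either Bax-/- TrkCGFPon array (adjusted p = 0.049) or either mlcNT3 TrkCGFPoff array (adjusted p = 0.041), which changes only the shared spread. It was also called by limma with the mean over its probe sets (-0.69, adjusted p = 0.0047) and with log2(value + 32) (adjusted p = 0.028). The same held when only the groups compared were fitted (adjusted p = 0.038) and without dim probe sets (adjusted p = 0.048). Quantile normalization, a replicate block and the t-test of the methods did not call it. The Bax-/- arrays lay 0.81 above wild-type, which was not called either (95% confidence interval 0.22 to 1.41, adjusted p = 0.23). The value against Bax-/- therefore includes an uncalled rise of the Bax-/- arrays over wild-type.

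*Fgf1* read 11.02 and 10.69 in Bax-/- and 9.50 and 9.91 in NT3-/-Bax-/- proprioceptors, a difference of -1.15 (SE 0.32, adjusted p = 0.025), or 2.22-fold. This call was lost without Bax-/- TrkCGFPon replicate 1 (-0.98) or NT3-/-Bax-/- TrkCGFPon replicate 1 (-0.94). It was also lost with the mean over the 3 *Fgf1* probe sets (-0.61, limma, adjusted p = 0.067). The second probe set was called as well (-1.02). The third was not called and had the opposite direction, with means of 8.58 in Bax-/- and 8.93 in NT3-/-Bax-/- proprioceptors. Against wild-type arrays at 11.70 and 11.69, the main probe set differed by -1.99 (limma, adjusted p = 7.2e-04), or 3.96-fold. Of the 6 genes, 0 were called higher and 2 lower against wild-type, namely *Fgf1* and *Fgf12*, beside 26.0% of all probe sets. Over the 16 probe sets, 1 was called higher and 6 lower against wild-type. Both comparisons share the NT3-/-Bax-/- arrays.

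Neither *Fgf7*, *Fgf13* nor *Fgf14* was called in proprioceptors on NT3 loss by its main probe set. The differences were 0.24 for *Fgf7* (95% confidence interval -0.30 to 0.77), 0.14 for *Fgf13* (95% confidence interval -0.26 to 0.54) and 0.68 for *Fgf14* (95% confidence interval -0.39 to 1.74). For *Fgf14* the probe sets were divided, since a dim one other than the main one was called lower (-0.90, adjusted p = 0.032). Without Bax-/- TrkCGFPon replicate 2 the main probe set of *Fgf14* was called higher (1.54, adjusted p = 0.030). Against wild-type TrkCGFPon cells it was not called, but the mean over the 4 *Fgf14* probe sets was higher (0.80, limma, adjusted p = 0.030). Another *Fgf14* probe set had means of 6.55 in NT3-/-Bax-/- and 4.27 in wild-type proprioceptors. Other features of the same arrays moved as well: 2 of the 4 proprioceptor markers were called lower, with a summed linear intensity of 4482 to 6436 against 14589 to 15718 in Bax-/-, and 4 of 7 Schwann and satellite glia markers were called lower, with 2647 to 5551 against 8250 to 11225. Of 7 pan-neuronal markers 1 was called lower, with 27170 to 32330 against 37285 to 37714. Of 5 low-threshold mechanoreceptor markers 1 was called lower, and of 6 nociceptor markers 1 was called higher. No fibroblast, endothelial or macrophage marker was called. The part of these features in the *Fgf12*, *Fgf9* and *Fgf1* differences was not tested.

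**Figure D2:**
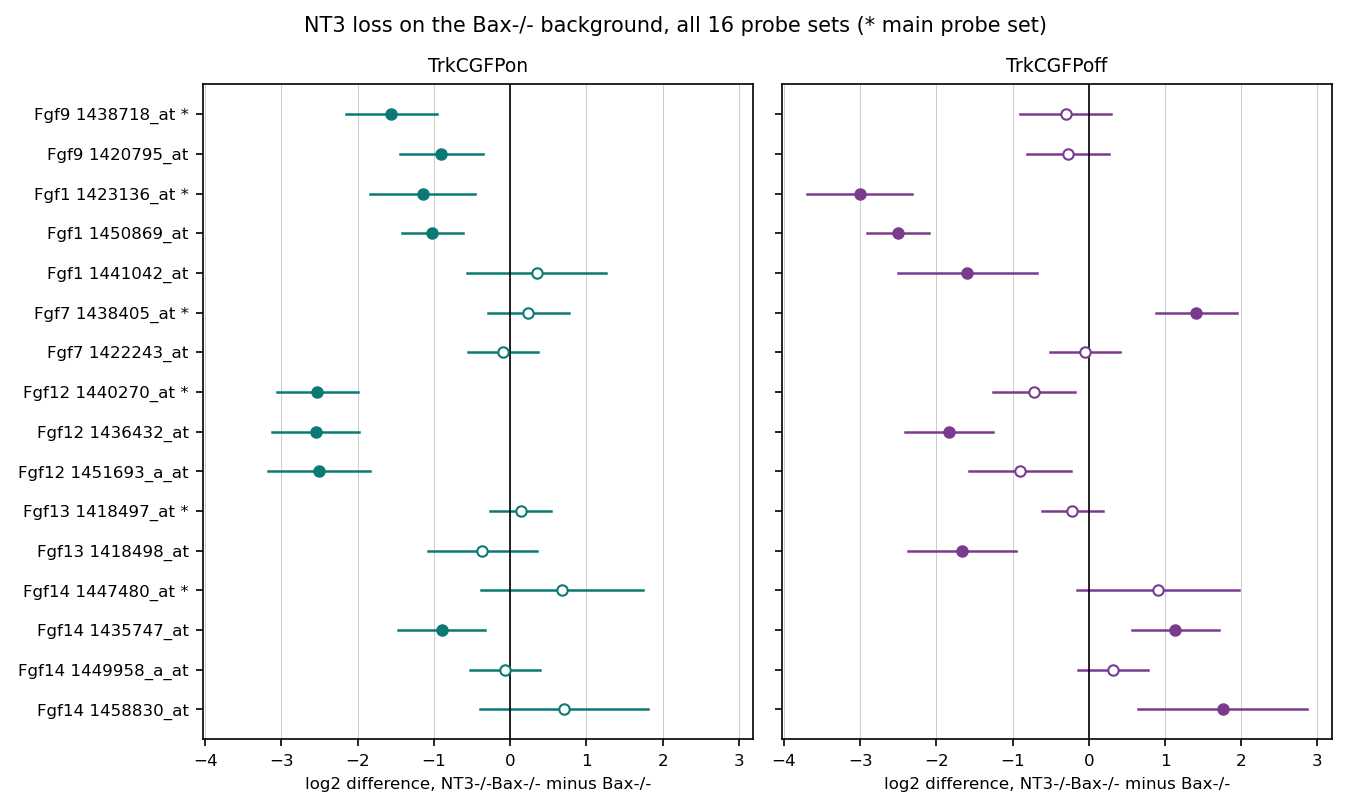
Log2 difference of NT3-/-Bax-/- minus Bax-/- cells (x axis) for all 16 probe sets (rows), in TrkCGFPon and TrkCGFPoff cells (panels), with bars for the 95% confidence interval, filled points for called probe sets and an asterisk at the main probe set of each gene. The 3 Fgf12 probe sets lie near -2.5 in TrkCGFPon cells, while Fgf1 lies lowest in TrkCGFPoff cells.

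The same comparison was made in TrkCGFPoff cells. Of the 6 genes, 1 was called higher and 1 lower, namely *Fgf7* and *Fgf1*, beside 21.7% of all probe sets, with a median difference of -0.26 against 0.01 for all probe sets. *Fgf1* read 11.85 and 10.96 in Bax-/- and 8.87 and 7.94 in NT3-/-Bax-/- cells, a difference of -3.01 (SE 0.32, adjusted p = 8.4e-05), or 8.04-fold. Its other 2 probe sets were called too, at -2.50 and -1.59. *Fgf7* read 4.25 and 4.78 in Bax-/- and 5.78 and 6.07 in NT3-/-Bax-/- cells, a difference of 1.41 (SE 0.24, adjusted p = 0.0017), or 2.66-fold, with all 4 values below the array median. The second *Fgf7* probe set, also dim, was not called.

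The comparison with wild-type TrkCGFPoff cells gave the same 2 genes, 1 higher and 1 lower, beside 26.5% of all probe sets. *Fgf1* was lower by 3.58 on the log2 scale than in wild-type (adjusted p = 2.0e-05), which is 11.9-fold, and *Fgf7* was higher by 1.64 (adjusted p = 5.1e-04), or 3.12-fold. *Fgf12* read 11.25 and 11.07 in Bax-/- and 10.59 and 10.29 in NT3-/-Bax-/- TrkCGFPoff cells and its main probe set was not called (-0.72, adjusted p = 0.055). It was called without either NT3-/-Bax-/- TrkCGFPon array (adjusted p = 0.023) or either mlcNT3 TrkCGFPon array (adjusted p = 0.041), none of which belongs to the groups compared, and so was its difference from wild-type of -0.68 (adjusted p = 0.025 and 0.043). Another *Fgf12* probe set was called (-1.84, adjusted p = 5.5e-04), and the mean over the 3 probe sets was called as well (-1.15, adjusted p = 0.0037). The second *Fgf13* probe set was lower by 1.66 on the log2 scale (adjusted p = 0.0036), whereas the main one was not called (-0.21). Of the 4 dim *Fgf14* probe sets, 2 were called higher against Bax-/-, at 1.13 (adjusted p = 0.0086) and 1.76 (adjusted p = 0.027), and the main one was not (0.91, adjusted p = 0.22).

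The makeup of the NT3-/-Bax-/- TrkCGFPoff arrays also differed from that of Bax-/- TrkCGFPoff arrays. All 6 fibroblast markers were called higher, with a summed linear intensity of 28451 to 43089 against 1671 to 2982, and *Col1a1* at 12.10 against 6.15. Of the 4 proprioceptor markers 2 were called higher, with sums of 912 to 1279 against 293 to 299 and *Ntrk3* at 9.12 against 7.13. Of 5 low-threshold mechanoreceptor markers 2 were called higher and 1 lower, with sums of 4542 to 5106 against 6708 to 8515. All 5 endothelial markers were called higher (2152 to 2154 against 276 to 404), as were 4 of 7 Schwann and satellite glia markers, with 1 lower (25325 to 28205 against 12659 to 12953). None of 6 macrophage markers was called, with sums of 396 to 13219 against 255 to 1267. Of 7 pan-neuronal markers 2 were called lower (22199 to 27109 against 35209 to 37515), and of 6 nociceptor markers 1 was called lower (12297 to 24868 against 31330 to 32820). The part of these cell types in the differences of TrkCGFPoff cells, between the sorted populations and in the interactions with the sort was not tested.

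Whether NT3 loss acted differently in the sorted populations was tested as an interaction, for which 9.65% of all probe sets were called. Of the 6 genes, 1 was called positive and 1 negative, and of the 16 probe sets 2 were positive and 3 negative. *Fgf1* had an interaction of 1.86 (SE 0.45, adjusted p = 0.021), that is, a smaller drop in TrkCGFPon than in TrkCGFPoff cells. Its second probe set gave 1.48 (adjusted p = 0.0039). *Fgf12* had an interaction of -1.81 (SE 0.35, adjusted p = 0.0060), a larger drop in TrkCGFPon cells. Its size depended on the probe set, since the second of the 3 gave -0.72 and was not called (adjusted p = 0.29), and the third gave -1.61 (adjusted p = 0.036). A dim *Fgf14* probe set other than the main one moved in opposite directions. From Bax-/- to NT3-/-Bax-/- its mean went from 5.90 to 5.01 in TrkCGFPon cells and from 4.22 to 5.36 in TrkCGFPoff cells. The *Fgf9* interaction of -1.26 (adjusted p = 0.064) and the *Fgf7* interaction of -1.17 (adjusted p = 0.052) were not called. Both came past the threshold without some arrays, *Fgf9* without Bax-/- TrkCGFPon replicate 1 (-1.56, adjusted p = 0.034) or either mlcNT3 TrkCGFPoff array (-1.26, adjusted p = 0.042), and *Fgf7* without Bax-/- TrkCGFPoff replicate 2 (-1.44, adjusted p = 0.037), Bax-/- TrkCGFPon replicate 1 (-1.35, adjusted p = 0.048) or either mlcNT3 TrkCGFPon array (-1.17, adjusted p = 0.034). The *Fgf1* interaction was lost without any of 4 arrays, which were Bax-/- TrkCGFPoff replicate 1 (1.42, adjusted p = 0.088), Bax-/- TrkCGFPon replicate 2 (1.69, adjusted p = 0.060), NT3-/-Bax-/- TrkCGFPoff replicate 2 (1.39, adjusted p = 0.051) and NT3-/-Bax-/- TrkCGFPon replicate 2 (1.66, adjusted p = 0.066). Both interactions missed the threshold when only the 4 groups compared were fitted (adjusted p = 0.15 for *Fgf1* and 0.059 for *Fgf12*).

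The sorted populations of NT3-/-Bax-/- mice were also compared directly for both genes. *Fgf1* was higher in TrkCGFPon than in TrkCGFPoff cells by 1.30 (SE 0.32, adjusted p = 0.012), and *Fgf12* was lower by 1.51 on the log2 scale (adjusted p = 9.9e-04). The dimmest of its probe sets was called too (-1.80, adjusted p = 0.0014), but the second was not (-0.25, adjusted p = 0.58). In Bax-/- neither gene was called between the sorted populations, with differences of -0.55 for *Fgf1* (adjusted p = 0.41) and 0.31 for *Fgf12* (adjusted p = 0.60). The *Fgf1* call was lost without NT3-/-Bax-/- TrkCGFPoff replicate 2 (0.84, adjusted p = 0.094) or TrkCGFPon replicate 2 (1.10, adjusted p = 0.081). The *Fgf12* call was lost when only the groups compared were fitted (adjusted p = 0.073). In this genotype all 7 Schwann and satellite glia, 6 fibroblast and 5 endothelial markers were called lower in TrkCGFPon than in TrkCGFPoff cells. So were 4 of 6 nociceptor, 3 of 5 low-threshold mechanoreceptor and 2 of 6 macrophage markers. Called higher were 4 of 4 proprioceptor, 1 of 5 low-threshold mechanoreceptor and 2 of 7 pan-neuronal markers. The part of these cell types in the *Fgf1* and *Fgf12* differences was not tested.

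Loss of Bax alone and surplus NT3 left the main probe sets of all 6 genes uncalled. For Bax-/- against wild-type the count was 0 of 6 in TrkCGFPon cells, where 0.500% of all probe sets were called, and 0 of 6 in TrkCGFPoff cells, beside 0.178%, with limma and with the t-test of the methods alike. At an unadjusted p below 0.05 the counts were 2 and 1. For mlcNT3 against wild-type they were 0 of 6 in TrkCGFPon cells, beside 0.209%, and 0 of 6 in TrkCGFPoff cells, beside 0.00444%, and 1 and 0 at an unadjusted p below 0.05. The second *Fgf1* probe set was the exception among the 16, since it read 8.28 and 8.28 in wild-type and 9.43 and 9.28 in mlcNT3 proprioceptors, a difference of 1.07 (SE 0.19, adjusted p = 0.043). The main *Fgf1* probe set differed by 0.37 there, with 12.22 and 11.90 against 11.70 and 11.69 (adjusted p = 1.0).

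Other genes of FGF signaling were read from lists of secreted ligands, receptors with co-receptors, and adaptors with feedback genes. On NT3 loss in TrkCGFPon cells, 1 of 15 other secreted ligands was called higher and 0 lower, with a list median of -0.07. That ligand was *Fgf18*, which was higher by 1.08 (adjusted p = 0.011) in TrkCGFPon cells and lower by 1.08 on the log2 scale in TrkCGFPoff cells (adjusted p = 0.0096). Of 12 receptors and co-receptors, 2 were called higher and 1 lower, with a median of -0.03. Of 19 adaptors and feedback genes, 5 were called higher and 9 lower, with a median of -0.29, where 18.2% of all probe sets were called. The largest fall was that of *Dusp6*, which encodes a phosphatase of MAP kinases and fell from 7.28 to 4.96 (adjusted p = 0.0077), followed by the Sprouty gene *Spry2*, from 10.33 to 8.21 (adjusted p = 4.5e-04). The largest rises were those of the adaptor gene *Gab1*, which rose from 9.38 to 11.89 (adjusted p = 4.5e-05), and *Flrt3*, which encodes a membrane protein that binds FGF receptors and rose from 7.11 to 9.76 (adjusted p = 0.0010). In TrkCGFPoff cells 1 of the 19 was called higher and 7 lower, beside 21.7%, with a median of -0.46, and *Spry3*, a Sprouty gene, fell from 7.50 to 4.71 (adjusted p = 3.6e-05).

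Sodium channel subunits, to which the homologous factors bind, were compared in the same way. Against Bax-/-, in TrkCGFPon cells, where 18.2% of all probe sets were called, 0 of 11 were called higher and 4 lower, with a median difference of -0.96 beside 0.01 for all probe sets, and in TrkCGFPoff cells, beside 21.7%, 0 were higher and 6 lower, with a median of -1.87. Against wild-type, 2 were higher and 4 lower in TrkCGFPon cells, beside 26.0%, and 1 was higher and 7 lower in TrkCGFPoff cells, beside 26.5%. *Scn4b*, a beta subunit, read 10.68 in Bax-/- and 4.20 in NT3-/-Bax-/- proprioceptors, a difference of -6.47 (SE 0.45, adjusted p = 4.9e-06). *Scn1a*, an alpha subunit, fell from 11.90 to 8.76 in the same cells (adjusted p = 5.0e-04). *Fgf11*, the homologous factor outside the 6 genes, was called lower in TrkCGFPon cells (-0.75, adjusted p = 0.018) and TrkCGFPoff cells (-0.87, adjusted p = 0.0069). It was higher in TrkCGFPon than in TrkCGFPoff cells in all 3 tested genotypes, by 1.51 in Bax-/-, 1.63 in NT3-/-Bax-/- and 1.57 in mlcNT3.

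With surplus NT3 in muscle, 0.209% of all probe sets were called in proprioceptors. There, 0 of 15 ligands, 0 of 12 receptors and 0 of 11 sodium channel subunits were called. Of 19 adaptors and feedback genes, 2 were higher and 1 lower. The feedback inhibitor gene *Spry4* rose from 6.35 to 8.51 (adjusted p = 0.024) and *Spred3*, a gene related to it, from 6.90 to 8.05 (adjusted p = 0.032). *Flrt2* fell from 9.36 to 7.91 (adjusted p = 0.024).

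To see how the genes behave at single segmental levels, sorted p0 cells of L1 and L5 were compared. For *Fgf9*, the L1 TrkCGFPon arrays read 10.61 and 10.84 and the L1 TrkCGFPoff arrays 5.23, 4.77 and 6.12, a difference of 5.35 (SE 0.32, adjusted p = 1.3e-06). At L5 the TrkCGFPon arrays read 9.99, 10.09 and 10.36 and the TrkCGFPoff arrays 5.57, 5.63 and 6.12, a difference of 4.38 (SE 0.29, adjusted p = 1.9e-06). *Fgf9* was thus higher in proprioceptors at both levels, on arrays other than those of the pooled sort. These arrays also hold sorted wild-type newborn cells, the kind of comparison for which *Fgf9* had been singled out. Its p-values here are therefore no independent evidence of the difference. Between L1 and L5 proprioceptors it differed by -0.57 and was not called (95% confidence interval -1.29 to 0.14, adjusted p = 0.64). Of the 6 genes, 3 were called higher and 1 lower in TrkCGFPon cells at L1, where 17.9% of all probe sets were called, and 1 was called higher and 0 lower at L5, beside 19.9%.

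*Fgf1* was the gene with a difference between levels. L1 TrkCGFPon arrays read 9.95 and 9.78, while the 3 L5 TrkCGFPon arrays read 11.25, 11.35 and 11.54, a difference of 1.51 (SE 0.15, 95% confidence interval 1.18 to 1.85, adjusted p = 0.0051), or 2.86-fold. The TrkCGFPoff arrays lay between 11.43 and 11.85 at both levels and did not overlap with those of L1 proprioceptors. *Fgf1* was called lower in TrkCGFPon than TrkCGFPoff cells at L1 (-1.75, SE 0.15, adjusted p = 1.5e-05, 3.35-fold) and by -0.30 at L5, where the main probe set was not called (adjusted p = 0.16) but the mean over the 3 probe sets was (-0.37, adjusted p = 0.036). The second *Fgf1* probe set gave 1.39 between levels in TrkCGFPon cells (adjusted p = 0.0099), -1.91 between the sorted populations at L1 (adjusted p = 1.6e-05) and -0.59 at L5 (adjusted p = 0.017), and its interaction of level and sort was 1.32 and not called.

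Over all genes, few probe sets differed between levels at p0. The share called was 0.397% in TrkCGFPon cells, where 1 of the 6 genes was higher at L5 and 0 lower, and 0.160% in TrkCGFPoff cells, where 0 of 6 were called by limma, by the t-test of the methods or at an unadjusted p below 0.05. The interaction of level and sort called 0.0666% of all probe sets and 1 of the 6 genes, *Fgf1* (1.45, SE 0.20, adjusted p = 0.044). This interaction rested closely on the threshold: it was lost without any 1 of 10 of the 11 arrays, with values of 1.37 to 1.54 and adjusted p up to 0.14, the exception being L5 TrkCGFPon replicate 1. It was also lost under quantile normalization (1.43, adjusted p = 0.051) and with a replicate block (1.47, adjusted p = 0.083). The direct comparison of L5 with L1 proprioceptors was not lost for any array left out, but was lost when only these 5 arrays were fitted (adjusted p = 0.13). The wild-type TrkCGFPon arrays of pooled lumbar DRG, from another set, read 11.70 and 11.69.

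**Figure D3:**
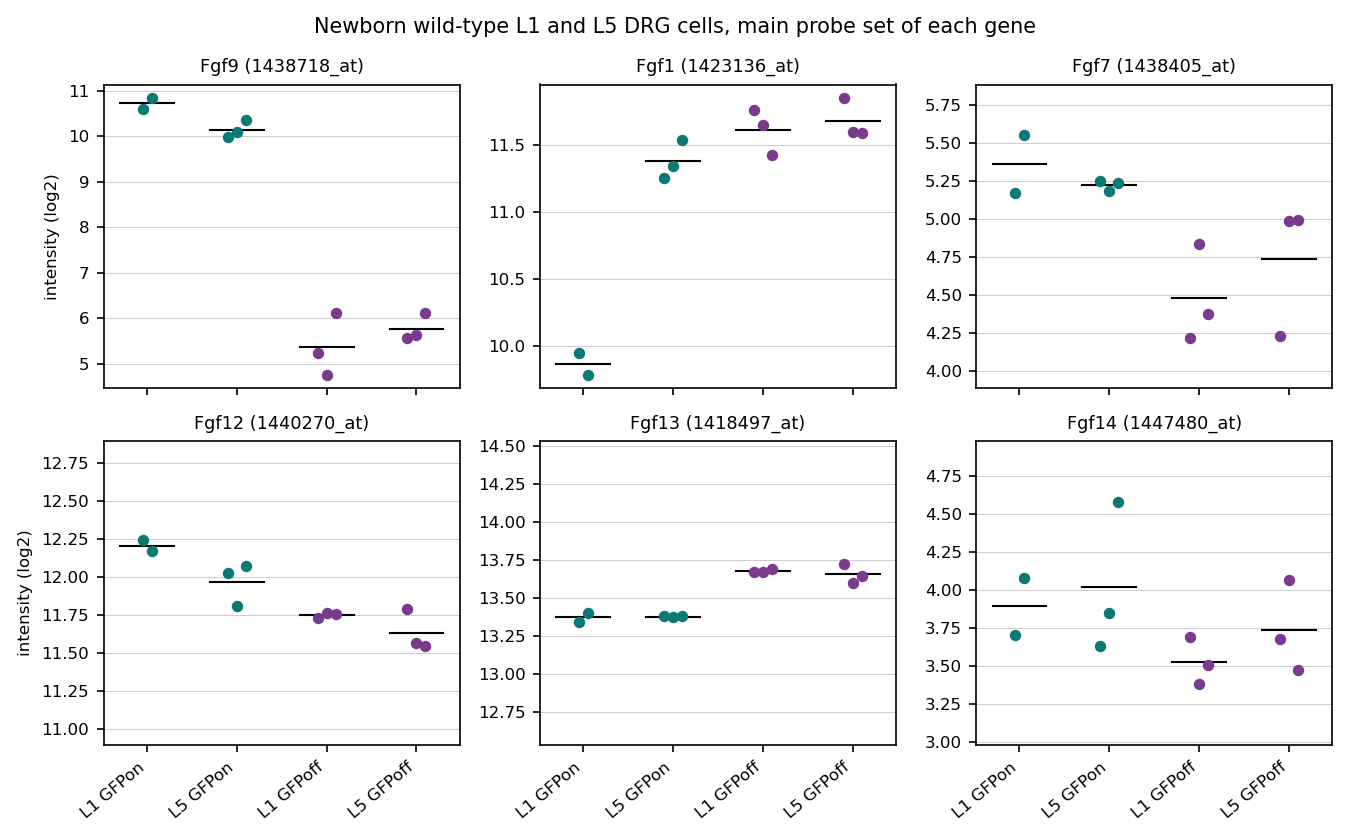
Log2 intensity (y axis) of the main probe set of each gene in sorted p0 cells of L1 and L5 (x axis), with 1 point for each array and a bar at the group mean. Fgf1 is low only in the 2 L1 TrkCGFPon arrays, at 9.95 and 9.78, and Fgf9 is high in TrkCGFPon cells at both levels.

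For the other genes, the main probe sets differed by under 1 log2 unit between the sorted populations of each level. *Fgf7* read 5.17 and 5.55 in L1 TrkCGFPon cells and 4.22, 4.84 and 4.37 in L1 TrkCGFPoff cells, a difference of 0.88 (SE 0.25, adjusted p = 0.030), and differed by 0.49 at L5 (adjusted p = 0.16). *Fgf12* read 12.24 and 12.17 against 11.73, 11.76 and 11.76 at L1, a difference of 0.46 (SE 0.13, adjusted p = 0.034), and differed by 0.34 at L5 (adjusted p = 0.071), which was called without L5 TrkCGFPon replicate 2 (0.41, adjusted p = 0.046). Both L1 calls were close to the threshold, since the *Fgf12* call was lost without any 1 of the 5 L1 arrays (0.42 to 0.49, adjusted p up to 0.16) and the *Fgf7* call without TrkCGFPon replicate 1 (1.07, adjusted p = 0.053) or 2 (0.69, adjusted p = 0.20) or TrkCGFPoff replicate 1 (0.76, adjusted p = 0.098) or 3 (0.83, adjusted p = 0.085). The other *Fgf12* probe sets had L1 means of 10.79 in TrkCGFPon against 10.20 in TrkCGFPoff cells and, in the opposite direction, 9.67 against 9.83. With the mean over the 3 *Fgf12* probe sets, the L1 call was lost (0.30, limma, adjusted p = 0.056). The L5 difference was then called (0.35, limma, adjusted p = 0.014).

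*Fgf13* had narrow groups on these arrays. Its main probe set read 13.34 to 13.41 in TrkCGFPon and 13.60 to 13.73 in TrkCGFPoff cells without overlap, and the differences of -0.31 at L1 (adjusted p = 0.085) and -0.28 at L5 (adjusted p = 0.074) were not called. Its second probe set was called lower in TrkCGFPon cells at both levels, with differences of -1.72 at L1 (adjusted p = 3.2e-04) and -1.30 at L5 (adjusted p = 9.2e-04). The main *Fgf14* probe set, which read 3.38 to 4.57 on all 11 arrays, was not called. Another dim *Fgf14* probe set was called higher in TrkCGFPon cells at L1 (1.22, adjusted p = 0.0014) and L5 (0.57, adjusted p = 0.047), and the mean over the 4 probe sets was called at L1 (0.57, adjusted p = 0.010).

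Among the other genes, *Scn1a* was higher in TrkCGFPon cells at L1 (12.28 against 8.64) and L5 (12.19 against 8.57), and the nociceptor channel genes *Scn10a* and *Scn11a* were lower at both levels, with *Scn10a* at 4.21 against 10.23 at L1 and 4.97 against 10.38 at L5. Of 11 sodium channel subunits, 4 were higher and 2 lower at L1, where 17.9% of all probe sets were called. At L5, beside 19.9%, 5 were higher and 2 lower. Of 19 adaptors and feedback genes, 3 were higher and 8 lower at L1, with a median of -0.78, and 3 were higher and 11 lower at L5. Between L5 and L1 proprioceptors 0 genes of any of these lists were called, beside 0.397% of all probe sets.

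In whole adult ganglia the level of the DRG separated 3 of the 6 genes. *Fgf9*, *Fgf7* and *Fgf14* were called higher and 0 lower at L5 than at L1, both without a wheel, where 4.68% of all probe sets were called, and with a wheel, beside 5.43%. The median difference of the 6 genes was 0.40 and 0.21, against -0.01 in both for all probe sets. The start regions of these 3 genes are shown so that what they share and do not share can be seen. Each is the stretch of 250 bases directly upstream of the RefSeq start site in mouse build GRCm38.p6, 5′ to 3′ on the strand of the gene, with capitals marking the only match to the 4 motifs searched. They lie at chr14:58072436-58072685 on the plus strand for *Fgf9*, chr2:126034408-126034657 on the plus strand for *Fgf7* and chr14:124192547-124192796 on the minus strand for *Fgf14*.
Fgf9: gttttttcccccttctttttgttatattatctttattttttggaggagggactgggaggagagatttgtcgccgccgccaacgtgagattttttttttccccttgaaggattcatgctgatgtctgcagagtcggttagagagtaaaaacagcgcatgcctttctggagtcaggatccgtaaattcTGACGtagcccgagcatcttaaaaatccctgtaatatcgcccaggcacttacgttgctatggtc
Fgf7: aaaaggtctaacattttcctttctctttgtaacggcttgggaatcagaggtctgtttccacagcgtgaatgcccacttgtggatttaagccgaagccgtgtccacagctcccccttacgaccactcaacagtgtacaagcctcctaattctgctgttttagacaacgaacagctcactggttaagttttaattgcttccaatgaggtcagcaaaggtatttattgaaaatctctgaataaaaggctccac
Fgf14: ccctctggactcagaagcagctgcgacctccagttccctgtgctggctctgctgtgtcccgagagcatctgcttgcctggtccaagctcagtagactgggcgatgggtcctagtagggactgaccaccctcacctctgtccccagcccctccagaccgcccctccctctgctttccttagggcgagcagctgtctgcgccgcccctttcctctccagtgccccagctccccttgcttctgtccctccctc

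The motifs were searched on both strands and do not overlap in letters. They were TGTGGT (the Runt domain core), CCGGAA (the core of ETS factor sites), TGACG (the core of the cAMP response element) and TATAAA (the TATA box), which occur in 14%, 12%, 17.8% and 12.4% of the 32851 windows of this length from 27025 mouse genes. TGACG occurs 64 bases before the start of *Fgf9*, on the strand of the gene, and no other match was present in the 3 windows. The base composition differed, with a GC content of 44.8% for *Fgf9* and 43.6% for *Fgf7*, above 23.2% and 20.1% of all windows, and 64% for *Fgf14*, above 80.8%. A match describes the letters and does not show a bound site.

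*Fgf9* read 7.62, 7.92 and 7.84 at L1 and 8.59, 8.47 and 8.77 at L5 without a wheel, a difference of 0.81 (SE 0.10, adjusted p = 2.3e-04), or 1.76-fold. With a wheel it read 7.91, 7.93 and 7.92 at L1 and 8.75, 8.81 and 8.70 at L5, a difference of 0.83 (SE 0.10, adjusted p = 1.1e-04), or 1.78-fold. The groups of the 2 levels did not overlap in either condition. Its second probe set was called in both, at 0.48 (adjusted p = 0.021) and 0.77 (adjusted p = 5.8e-04). At p0 the sorted L5 proprioceptors were not called against L1 for *Fgf9*, and their difference of -0.57 had the opposite sign.

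*Fgf14* was dim but tightly grouped in adult ganglia. It read 3.59, 3.88 and 3.88 at L1 and 4.56, 4.72 and 4.70 at L5 without a wheel, a difference of 0.88 (SE 0.09, adjusted p = 8.0e-05), and 3.61, 3.75 and 3.69 against 4.76, 4.75 and 4.80 with a wheel, a difference of 1.09 (adjusted p = 6.9e-06), or 2.12-fold. All 12 values lay below the array median. Of its 3 other probe sets, 1 was called higher without a wheel (0.47, adjusted p = 0.0091) and another with a wheel (0.37, adjusted p = 0.030).

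*Fgf7* was above the array median on all 12 adult arrays and on none of the newborn arrays, which belong to other sets. It read 7.15, 7.60 and 7.46 at L1 and 8.19, 8.42 and 8.19 at L5 without a wheel, a difference of 0.86 (SE 0.12, adjusted p = 7.3e-04), or 1.81-fold. With a wheel it read 7.42, 7.51 and 7.41 at L1 and 8.11, 7.91 and 7.80 at L5, a difference of 0.49 (SE 0.12, adjusted p = 0.022), or 1.41-fold. The call with a wheel was lost without any 1 of 5 wheel arrays, L1 replicates 1, 2 and 3 and L5 replicates 1 and 2, with values of 0.41 to 0.53 and adjusted p of 0.051 to 0.12. The second *Fgf7* probe set, below the median on all 39 arrays, was not called.

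Markers of proprioceptors moved with the level. Of the 4 measured, 3 were called higher at L5 without a wheel and 4 with a wheel, and their summed linear intensity was 2351 to 3048 over the L5 arrays and 1433 to 1628 over the L1 arrays. Of 6 nociceptor markers, 1 and 3 were called lower at L5, with sums of 15722 to 18390 at L5 and 17842 to 24177 at L1. Of 6 fibroblast markers 0 were called in either condition, with sums of 8907 to 16094 at L5 and 9571 to 11907 at L1. Of 5 low-threshold mechanoreceptor markers, 2 were called higher and 1 lower at L5 without a wheel and 2 higher and 2 lower with a wheel, with sums of 6151 to 7020 at L5 and 6787 to 8950 at L1. Of 6 macrophage markers 1 was called higher at L5 without a wheel (sums of 1639 to 3137 against 1273 to 1613) and 0 with a wheel. Of 7 Schwann and satellite glia markers 0 were called, with sums of 21442 to 22934 at L5 and 17287 to 20152 at L1 without a wheel. The part of these cell types in the *Fgf9*, *Fgf14* and *Fgf7* differences was not tested.

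**Figure D4:**
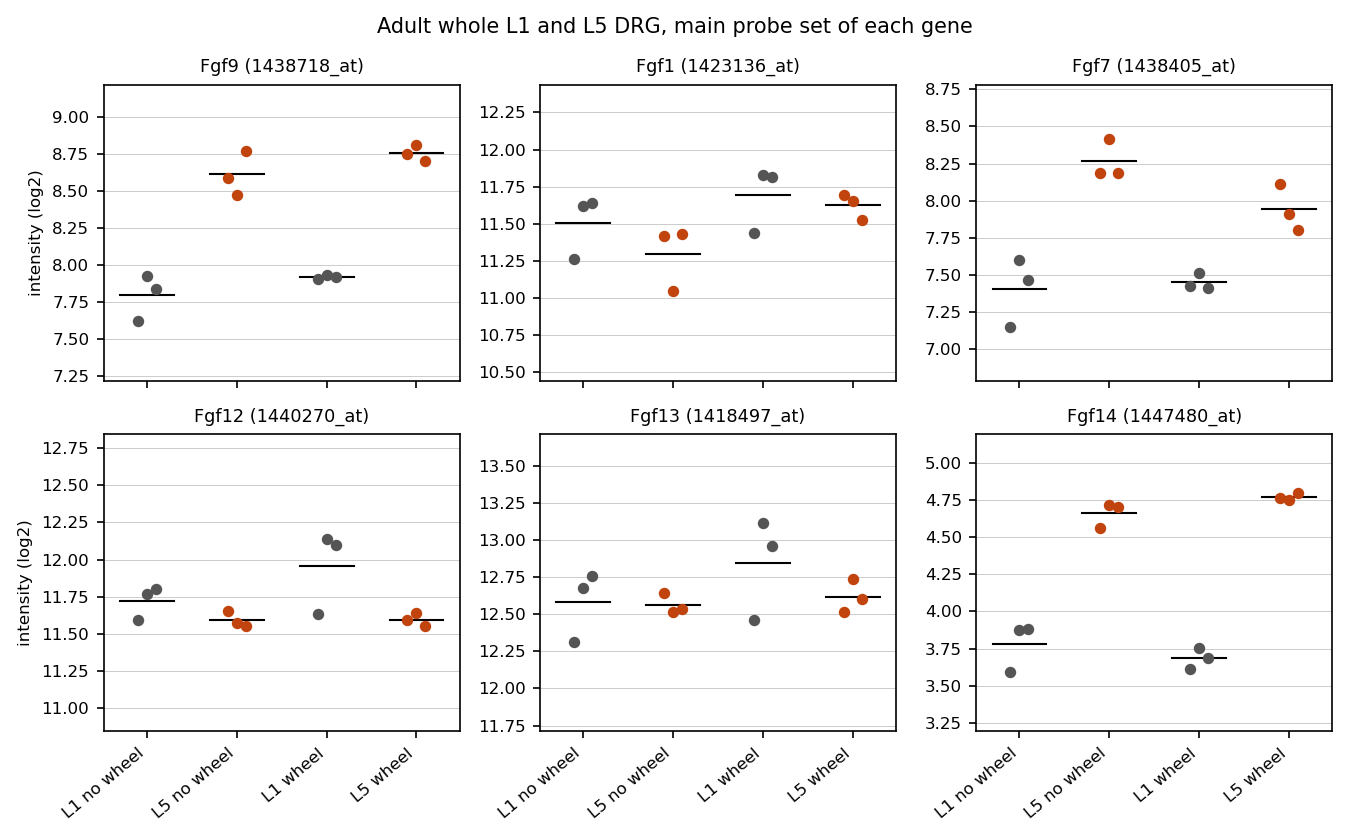
Log2 intensity (y axis) of the main probe set of each gene in whole adult L1 and L5 DRG without and with a running wheel (x axis), with 1 point for each of 3 arrays per group and a bar at the mean. Fgf9, Fgf7 and Fgf14 are higher at L5 in both conditions, and the groups of the other genes overlap or lie close.

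*Fgf1*, *Fgf12* and *Fgf13* were not called between adult levels by their main probe sets. *Fgf1* read 11.05 to 11.83 over the 12 arrays, and differed between levels by -0.21 (95% confidence interval -0.50 to 0.08) without and -0.07 (95% confidence interval -0.36 to 0.22) with a wheel. *Fgf12* read 11.55 to 12.14 and was lower at L5 by 0.36 on the log2 scale with a wheel, which was not called (adjusted p = 0.088). Without L1 wheel replicate 1, which read 11.63 where the other two read 12.14 and 12.10, the *Fgf12* difference was called (-0.52, adjusted p = 0.0051), and so was the rise with a wheel at L1 (0.40, adjusted p = 0.044), which with all arrays was 0.24 (adjusted p = 0.45). The same array was the lowest of its group for *Fgf13* (12.46 against 13.12 and 12.96) and *Fgf1* (11.44 against 11.83 and 11.81). Another *Fgf12* probe set was called lower at L5 without a wheel (-0.36, adjusted p = 0.031).

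Running had no called effect on any of the 6 genes. With a wheel against without, 0 of 6 were called at L5, beside 0.480% of all probe sets, and 0 of 6 at L1, beside 0.242%, by limma and by the t-test of the methods, and 2 and 0 had an unadjusted p below 0.05. The 2 genes at L5 were *Fgf7*, which read 0.32 lower with a wheel in mean log2 intensity (limma, adjusted p = 0.18), and *Fgf1*, which read 0.33 higher (limma, adjusted p = 0.24). The *Fgf9* difference was 0.14 at L5 (adjusted p = 0.51) and 0.12 at L1 (adjusted p = 0.67). The interaction of level and running called 0% of all probe sets and 0 of the 6 genes, with 1 gene, *Fgf7*, at an unadjusted p below 0.05 (-0.37, adjusted p = 0.42).

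*Fgf11*, the homologous factor outside the 6 genes, had the largest difference between adult levels among the pathway genes. It read 5.57 at L1 and 7.12 at L5 without a wheel (adjusted p = 3.4e-05) and 5.67 and 7.29 with a wheel (adjusted p = 1.1e-05). Of 11 sodium channel subunits, 1 was higher and 2 lower at L5 without a wheel, beside 4.68% of all probe sets. With a wheel 0 were higher and 3 lower, beside 5.43%. *Scn8a*, an alpha subunit of large myelinated neurons, was higher at L5 without a wheel (10.56 against 9.93, adjusted p = 0.021), and *Scn3b*, a beta subunit, was lower without a wheel (10.58 against 11.17, adjusted p = 0.0047) and with a wheel (10.78 against 11.36, adjusted p = 0.0042). None of the 12 receptors was called in either condition, and of 15 other secreted ligands 0 were called without and 1 higher with a wheel.

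The genes whose pattern over the 16 pooled newborn arrays was most like that of each member were read among 14853 probe sets with group means that span at least 1 log2 unit. For *Fgf9* these were *Runx3* (Pearson r = 0.986), the transcription factor of proprioceptors, *Slc1a1* (0.979), a glutamate transporter gene, and *Hs3st2* (0.979), a heparan sulfate sulfotransferase gene. For *Fgf14* they were *Ntrk3* (0.952), which encodes TrkC, *Slc12a5* (0.940), the gene of a neuronal chloride transporter, and *Npas3* (0.939). For *Fgf12* they were *Myo5a* (0.970), a motor protein gene, *Phactr2* (0.967) and *Crot* (0.959), and for *Fgf1* *Samd10* (0.987), *Mtmr9* (0.985) and *Asb1* (0.980). Likeness was lower for *Fgf13*, with *Sun1* (0.936), *Pou4f1* (0.922), a sensory neuron transcription factor, and *Chka* (0.921), and for *Fgf7*, with *Gucy1a1* (0.909), *Pde9a* (0.906) and *Gpm6b* (0.895). These are descriptions over 8 groups of 2 arrays that share their sort and genotype, and no test was made.

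The order of the group means summarises each gene over the pooled newborn arrays. For *Fgf9* the 4 TrkCGFPon groups came first, in the order Bax-/- (11.24), wild-type (10.42), mlcNT3 (10.32) and NT3-/-Bax-/- (9.68), where the arrays of wild-type and mlcNT3 overlapped and those of the other neighbours did not. For *Fgf14* the same 4 groups also came first, in the order NT3-/-Bax-/- (7.70), Bax-/- (7.02), wild-type (6.85) and mlcNT3 (6.49), with overlap among the first 3. For *Fgf12* the last were NT3-/-Bax-/- TrkCGFPoff (10.44) and TrkCGFPon cells (8.93), and for *Fgf1* NT3-/-Bax-/- TrkCGFPon (9.71) and TrkCGFPoff cells (8.40), without overlap with their neighbours. For *Fgf7* NT3-/-Bax-/- TrkCGFPoff cells came first (5.92). For *Fgf13* the 4 TrkCGFPoff groups came first, from 13.40 in Bax-/- to 13.19 in NT3-/-Bax-/-, and mlcNT3 proprioceptors came last (12.55).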

How the data were processed

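RNA of sorted p0 cells or whole adult DRG was amplified by in vitro transcription and hybridised to Affymetrix Mouse Genome 430 2.0 arrays. According to the methods and the submitters' processing notes, the authors read the arrays in R 2.9 with the affy package, made expression values with RMA and presence calls with MAS5. The deposited intensities are linear, 1 value per probe set and array, and already background-corrected and normalized, and a joint normalization of the 39 arrays is not stated in the sources used here, so levels of the 3 sets are only set side by side. Affymetrix control probe sets (64 of 45101) were left out, and the log2 of each intensity was taken with no offset. In R 4.3.3, limma 3.58.1 (lmFit, eBayes) was fitted separately to the 16 pooled newborn, 11 newborn level and 12 adult arrays, with 1 mean per group, no covariate and two-sided tests with Benjamini-Hochberg adjustment over the 45037 probe sets, in 22 tested comparisons. The number of arrays limits the precision. The fitting script was tested on simulated data.

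The 6 genes and all lists of pathway and marker genes were chosen with earlier results of these data known. A gene was represented by the probe set with the highest mean over all 39 arrays, all its other probe sets were read as well, and of the pathway lists up to 4 called genes with the largest change per comparison were named. *Fgf11*, *Fgf18* and the markers outside this rule were named as the other members of their list or the called member of a small count, and *Dusp6* and *Spry2* after their values were seen. Promoter sequences are those of RefSeq; 3 of the 6 genes are shown, *Fgf12* and *Fgf13* have several start sites, and that of *Fgf1* was not used here. Alternatives were a replicate block, leaving out each array, quantile normalization, log2(value + 32), dropping dim probe sets, the mean of the probe sets of a gene, fits of only the groups compared, and the methods' t-test at their thresholds (p up to 0.02 and a fold from 2 upward in the newborn, or from 1.5 upward for surplus NT3 and the adult) or with Benjamini-Hochberg adjustment. Same-numbered arrays were not treated as paired, because in no comparison with 3 pairs did every pair of deviations from the group means correlate above 0.1. A crossed block for Bax-/- against wild-type TrkCGFPoff cells was added after seeing the data.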

Additional observations from a re-analysis of the deposited data

Results flagged for a closer look

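For 2 genes the effect of a contrast differed between groups by a test of the difference itself. The *Fgf1* drop on NT3 loss was smaller in TrkCGFPon than in TrkCGFPoff cells by 1.86 on the log2 scale (limma, adjusted p = 0.021), with differences of -1.15 and -3.01. The *Fgf12* drop was larger in TrkCGFPon cells, by an interaction of -1.81 (limma, adjusted p = 0.0060), with differences of -2.53 and -0.72. Its size depended on the probe set, with -0.72 (adjusted p = 0.29, not called) and -1.61 (adjusted p = 0.036) for the other 2. In newborn L1 and L5 cells the difference of L5 minus L1 for *Fgf1* was larger in TrkCGFPon than in TrkCGFPoff cells by 1.45 (limma, adjusted p = 0.044), with differences of 1.51 and 0.07. Both interactions of NT3 loss missed the threshold when only the groups compared were fitted (limma, adjusted p = 0.15 for *Fgf1* and 0.059 for *Fgf12*). The *Fgf1* interaction of NT3 loss was also lost without any of 4 single arrays. That of level was lost without any 1 of 10 of the 11 arrays, under quantile normalization and with a replicate block. No cause was tested for any of these interactions.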

How the results depend on the processing

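No called difference of a gene changed sign under any alternative run. Of 1009 values of single genes under other settings, 912 stayed the same, 52 lost and 37 gained a call and 8 moved. Of 1938 with 1 array left out, 1876 stayed the same, 39 lost and 23 gained a call. In tested comparisons, a value stayed the same if it kept its side of the threshold. The untested wild-type sort is included, where a value moved if it shifted by at least the larger group standard deviation. Counts of called genes, out of 6, changed by over 1.5 times as follows, and the cause was not tested. With log2(value + 32), Bax-/- between sorted populations went from 2 to 1, L5 between sorted populations from 1 to 3 and the interaction of NT3 loss and sort from 2 to 4. With the mean of the probe sets, NT3-/-Bax-/- TrkCGFPoff cells went from 2 to 5 against Bax-/- and against wild-type, TrkCGFPon cells from 2 to 4 against wild-type and the L5 sort from 1 to 4. Fitting only the groups compared, the Bax-/- sort gave 1, the NT3-/-Bax-/- sort 1 in place of 4, the interaction of NT3 loss 0 and L5 against L1 proprioceptors 0 in place of 1. Under quantile normalization the L5 sort gave 2 and the interaction of level and sort 0 in place of 1. Without dim probe sets, where members below the median are not fitted, the Bax-/- sort gave 1 and the L5 sort 3. The methods name a t-test and ANOVA, and the paper's counts for NT3 loss came from ANOVA, which was not run here. The t-test of the methods at its own thresholds gave 0 for NT3 loss in TrkCGFPon cells, in place of 3, and in TrkCGFPoff cells, in place of 2. The same t-test gave 1 for NT3-/-Bax-/- against wild-type TrkCGFPon cells, 1 for each of the Bax-/-, NT3-/-Bax-/- and mlcNT3 sorts and 2 for the L1 sort, in place of 4. With Benjamini-Hochberg adjustment it gave 0 for all 3 of these genotype sorts, for all 4 comparisons of NT3-/-Bax-/- cells with Bax-/- or wild-type cells, for L5 against L1 proprioceptors and for adult L5 against L1 without a wheel, in place of 3, and 2 for the L5 sort. With 1 array left out, the counts ranged from 1 to 2 for the Bax-/- sort, 2 to 4 for the NT3-/-Bax-/- sort, 1 to 2 for the mlcNT3 sort, 2 to 4 for NT3 loss in TrkCGFPon cells, 2 to 3 for the other comparisons of NT3-/-Bax-/- cells, 1 to 4 for the interaction of NT3 loss, 2 to 4 for the L1 sort, 1 to 2 for the L5 sort, 0 to 1 for the interaction of level and sort, 2 to 3 for adult L5 against L1 with a wheel and 0 to 1 for running at L1, and did not move elsewhere. The *Fgf14*, *Fgf1*, *Fgf13*, *Fgf12* and *Fgf7* calls named above as lost in this way are open to 1 array.

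With a replicate block, 0 of the 6 genes were called in the interaction of level and sort, and the *Fgf7* interaction of NT3 loss was called (-1.17, adjusted p = 0.042). It changed no other call of the 6 genes. Over all probe sets it moved the calls for running at L5 from 216 to 93 and for L5 against L1 proprioceptors from 179 to 111. As a hint from the data, all 6 L5 newborn arrays correlated best with the array of their own number in the other sort (r of deviations 0.0849 to 0.203). The crossed pairing of Bax-/- with wild-type TrkCGFPoff cells called 30 probe sets and 0 of the 6 genes. Dim signals limit *Fgf7* at p0 and *Fgf14*, whose main probe set exceeded the array median only on the pooled TrkCGFPon arrays.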
